A study of Mus musculus with 6 samples.

Results

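Histone genes were described across 3 groups of 2 arrays of mouse muscle RNA. A gene was counted as a histone gene where its symbol, found from the RefSeq accession of an array probe, began with Hist1h, Hist2h, Hist3h, Hist4, H1f, H2ac, H2bc, H3c or H4c. The rule used no measured value and found 47 genes, measured by 52 probes, among 20972 gene symbols on the array; all 47 carry the newer symbols. They comprised 10 linker histone (H1) genes, 12 H2A genes, 10 H2B genes, 7 H3 genes and 8 H4 genes. Of these, 36 lay on chromosome 13, 7 on chromosome 3, 2 on chromosome 15 and 2 on chromosome 6. MDX mice, which lack functional dystrophin, drank JJ101, named in the labels as a bioceramic water (MDX_JJ101), or tap water (MDX_tap), and C57BL/10 mice drank tap water (B10_tap). All groups had been on their water for 10 months, and the labels give neither the age nor the sex of the mice nor the makeup of JJ101. Replicates carry numbers but are not said to be separate mice, so that p-values measure the spread between these samples, which may be technical.

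Histones are the proteins around which DNA is wound. Pairs of H2A, H2B, H3 and H4 form the nucleosome core, and H1 binds the linker DNA between nucleosomes. Most of these genes lie in clusters and are replication-dependent: their messages build up in S phase, when new DNA has to be packed, and end in a stem-loop in place of a poly(A) tail. Replacement histones are made outside S phase from ordinary polyadenylated messages. In adult muscle most nuclei belong to fibres that no longer divide, while satellite cells, immune cells and connective tissue cells can. The labelling kit named in the labels normally primes from a poly(A) tail; which form of each histone message was measured was not tested. The copies of a core histone are nearly identical in coding sequence, and the probe sequences were not used here, so values of single H2A, H2B, H3 and H4 genes are uncertain where a probe could bind several copies.

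Levels are log2 intensities relative to the 75th percentile of the array's spots, so that 0 is that percentile and a negative level is a dimmer spot. They may be compared between arrays for 1 gene, not between genes. The share of spots well above background, a flag of the scanner software, was 42.5% to 43.8% in MDX_JJ101, 48.1% to 49.6% in MDX_tap and 51.4% to 51.6% in B10_tap. No spot was saturated. All arrays lay on 1 slide with 1 scan time. Both MDX_JJ101 arrays lay in row 2 and the other 4 arrays in row 1, so that slide row and JJ101 cannot be told apart. MDX_JJ101 and MDX_tap shared slide columns 3 and 4, and B10_tap lay in columns 1 and 2, so that column and strain cannot be told apart. The label of gastrocnemius did not match all markers. Of 12 heart markers, 11 were well above background on all 6 arrays, including the heart regulators Nkx2-5, Gata4 and Tbx5. Of 15 limb muscle markers, 4 were so, and the limb muscle regulators Myod1, Myf5 and Myog were on none. In bulk RNA of this kind, fewer cells of a type and less RNA per cell cannot be told apart.

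Histone promoters carry short motifs that general and histone-specific factors bind. Below are the 180 bases before the start of 6 genes that passed the test between MDX_JJ101 and MDX_tap, from RefSeq promoters of assembly GRCm38.p6. They were picked, after their values were seen, to cover both directions and 4 of the classes. Each is read 5′ to 3′ on the gene's own strand, and capitals mark 3 motifs or their reverse complements: the letters TATAAA of the TATA box, the letters CCAAT, a box that general factors bind, and the octamer ATTTGCAT.
H1f2, chr13:23738627-23738806, plus strand: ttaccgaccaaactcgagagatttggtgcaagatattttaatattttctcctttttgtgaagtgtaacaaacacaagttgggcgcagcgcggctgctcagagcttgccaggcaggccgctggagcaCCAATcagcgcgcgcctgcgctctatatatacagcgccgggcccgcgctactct
H2bc1, chr13:23934157-23934336, minus strand: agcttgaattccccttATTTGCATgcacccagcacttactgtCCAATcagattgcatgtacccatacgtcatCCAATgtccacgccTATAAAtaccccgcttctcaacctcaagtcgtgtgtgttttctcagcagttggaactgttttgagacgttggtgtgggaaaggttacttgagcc
H2bc14, chr13:21721864-21722043, plus strand: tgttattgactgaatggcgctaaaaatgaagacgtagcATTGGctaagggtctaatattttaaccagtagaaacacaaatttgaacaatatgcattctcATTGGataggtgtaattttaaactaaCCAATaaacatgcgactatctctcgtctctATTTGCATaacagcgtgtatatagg
H2ac4, chr13:23750908-23751087, plus strand: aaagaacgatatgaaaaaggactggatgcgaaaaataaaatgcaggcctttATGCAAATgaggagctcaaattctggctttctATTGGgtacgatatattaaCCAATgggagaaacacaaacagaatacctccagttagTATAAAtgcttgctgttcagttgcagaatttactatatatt
H2bc18, chr3:96269520-96269699, plus strand: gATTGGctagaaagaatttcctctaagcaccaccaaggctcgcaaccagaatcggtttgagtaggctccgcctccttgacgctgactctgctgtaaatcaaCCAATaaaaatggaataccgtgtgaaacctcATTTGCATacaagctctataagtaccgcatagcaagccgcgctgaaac
H4c3, chr13:23698459-23698638, minus strand: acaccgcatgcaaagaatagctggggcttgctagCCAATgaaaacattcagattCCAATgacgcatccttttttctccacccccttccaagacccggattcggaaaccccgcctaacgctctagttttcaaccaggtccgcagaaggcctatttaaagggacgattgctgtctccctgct
In these windows the first 3 genes, higher in MDX_JJ101, and the last 3, lower in MDX_JJ101, shared motifs. H2bc1 and H2ac4 each held all 3 motifs, H2bc14 and H2bc18 held CCAAT and the octamer, and H1f2 and H4c3 held CCAAT without the other two.

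RefSeq gave 43 promoters for 42 of the 47 genes. The motifs were searched on both strands from 250 bases before the start to 50 after it, and each motif was counted on its own. TATAAA was found in 48.8% of the histone promoters and in 12.4% of all 32851 promoters in the table. CCAAT was found in 81.4% of the histone promoters and in 33.8% of all promoters. The octamer ATTTGCAT was found in 27.9% of the histone promoters and in 1.60% of all promoters. The octamer divided the classes: it lay in 6 of 12 H2A promoters and 6 of 9 H2B promoters, and in none of the 10 H1, 5 H3 and 7 H4 promoters. CCAAT lay in all 12 H2A, all 9 H2B and all 5 H3 promoters, in 7 of 10 H1 promoters and in 2 of 7 H4 promoters. A match describes the letters in this window and says nothing of binding in this muscle.

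Of the 47 histone genes, all 6 arrays showed 30 well above background, some arrays showed 7 and no array showed 10. By group, 30 were well above background on both MDX_JJ101 arrays, 36 on both MDX_tap arrays and 35 on both B10_tap arrays. The 8 H4 genes were all found on at least 1 array, and 7 of them on all 6. Of the 12 H2A genes, 9 were found on all 6 arrays and 2 on none (H2ac8 and H2ac21). Of the 10 H2B genes, 6 were found on all 6 arrays and 3 on none (H2bc3, H2bc22 and H2bc23). Of the 7 H3 genes, 4 were found on all 6 arrays and 2 on none (H3c1 and H3c11). The linker histones were found least, with 4 of 10 on all 6 arrays and 3 on none. Those 3 were H1f3, a somatic linker histone, and H1f6 and H1f7, the linker histones of spermatocytes and spermatids. H2bc8 was well above background on 1 B10_tap array alone.

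**Figure D1:**
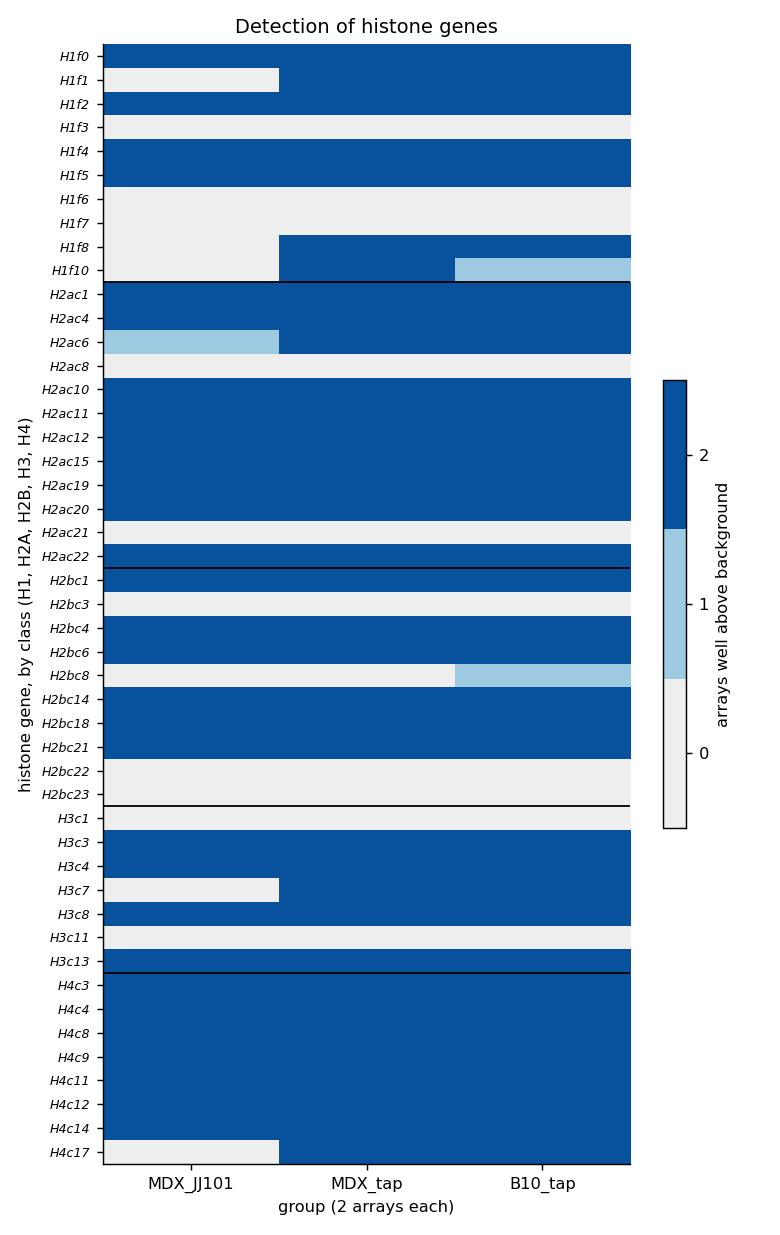
Number of arrays (0, 1 or 2) on which each of the 47 histone genes was well above background, with the groups on the x axis and the genes, by class, on the y axis. The 5 genes H1f1, H1f8, H1f10, H3c7 and H4c17 were well above background on both MDX_tap arrays and on neither MDX_JJ101 array.

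Detection differed between the MDX groups for dim genes. The 5 genes H1f1, H1f8, H1f10, H3c7 and H4c17 were well above background on both MDX_tap arrays and on neither MDX_JJ101 array. They made up 13.9% of the 36 histone genes tested, against 7.42% of all genes tested, which met the same filter. H1f10 entered the 36 through MDX_tap alone, so its place in this count is partly built in. No histone gene had the opposite pattern, which 0.153% of all genes had. Fewer spots of any kind were well above background in MDX_JJ101 (42.5% to 43.8%, against 48.1% to 49.6% in MDX_tap), and the part of this in the 5 genes was not tested. The 36 genes tested are those that 1 group or more showed well above background on each of its arrays.

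Between MDX_JJ101 and MDX_tap, histone genes moved in both directions. Of 36, 12 passed the test (33.3%), near the 36.1% of all 20869 genes tested that did, so the count alone is no result about histones. Higher in MDX_JJ101 were 4 genes, H1f2, H2bc1, H2bc14 and H4c8, or 11.1%, against 19.9% of all genes. Lower in MDX_JJ101 were 8 genes, H1f8, H1f10, H2ac4, H2ac11, H2bc18, H3c7, H4c3 and H4c17, or 22.2%, against 16.1% of all genes. H1f10 among them entered the test through MDX_tap alone, where it is high. Differences (MDX_JJ101 minus MDX_tap, log2) ran from -1.73 to 0.59. Their median was -0.17 over the 36 genes and 0.00086 over all genes. Both MDX_JJ101 arrays lay below both MDX_tap arrays for 21 of 36 (58.3%, against 35.4% of all genes), and above them for 9 (25.0%, against 37.3% of all genes). The difference was above 0 for 14 of 36 histone genes and for 10441 of all 20869 genes. At an unadjusted p under 0.05, 16 passed (44.4%, against 49.7% of all genes), 4 of them higher (11.1%, against 26.3%) and 12 lower (33.3%, against 23.4%).

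The test was limma's moderated test over all 6 arrays, two-sided, and calls were made at an adjusted p (Benjamini-Hochberg, all 20869 genes) under 0.05. The calls needed both MDX_tap arrays, and over all genes as well far fewer passed without either one. Such a fit leaves 1 array in MDX_tap and fewer degrees of freedom. The median over the 36 genes was -0.17 without replicate 1 and -0.15 without replicate 2. With the slide column as a block, 0 of 36 passed, and 0 of all 20869 genes did. At an unadjusted p under 0.05 there were 15 of 36, and 8857 of all genes. The arrays of the 2 MDX groups do not overlap for any of the 12 genes, which fixes their direction within columns 3 and 4. Without either B10_tap array, or with the 2 MDX groups alone, 2 of 36 passed, H4c3 and H1f8. Of all genes, 1757 passed there as higher and 1490 as lower. Fewer of the 36 also passed without MDX_JJ101 replicate 2, with a median of -0.12. The split of 4 higher and 8 lower became 0 and 9 with scaling to the spike-in probes, where all genes gave 81 and 3713. It became 3 and 15 with normexp and quantile normalization (all genes 3660 and 3787) and 3 and 10 with median centring (3637 and 3859). With no filter on dim probes it was 7 and 6 of 47 (10489 and 3151 of all 36983). It was 2 and 15 in the authors' table (3475 and 3956) and 5 and 8 with the mean of a gene's probes (4028 and 3407). Spike-in scaling moved the all-gene median by -0.43 and left H1f2, H2bc1, H2bc14 and H4c8 between 0.10 and 0.15, none past the threshold. Of 15 alternatives, the calls on H4c3 and H1f8 were kept in 12 each and that on H2ac11 in 8. Those on H2ac4, H2bc1, H2bc18, H4c8 and H4c17 were kept in 7 each, that on H1f10 in 5, that on H2bc14 in 4 and those on H1f2 and H3c7 in 3 each.

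**Figure D2:**
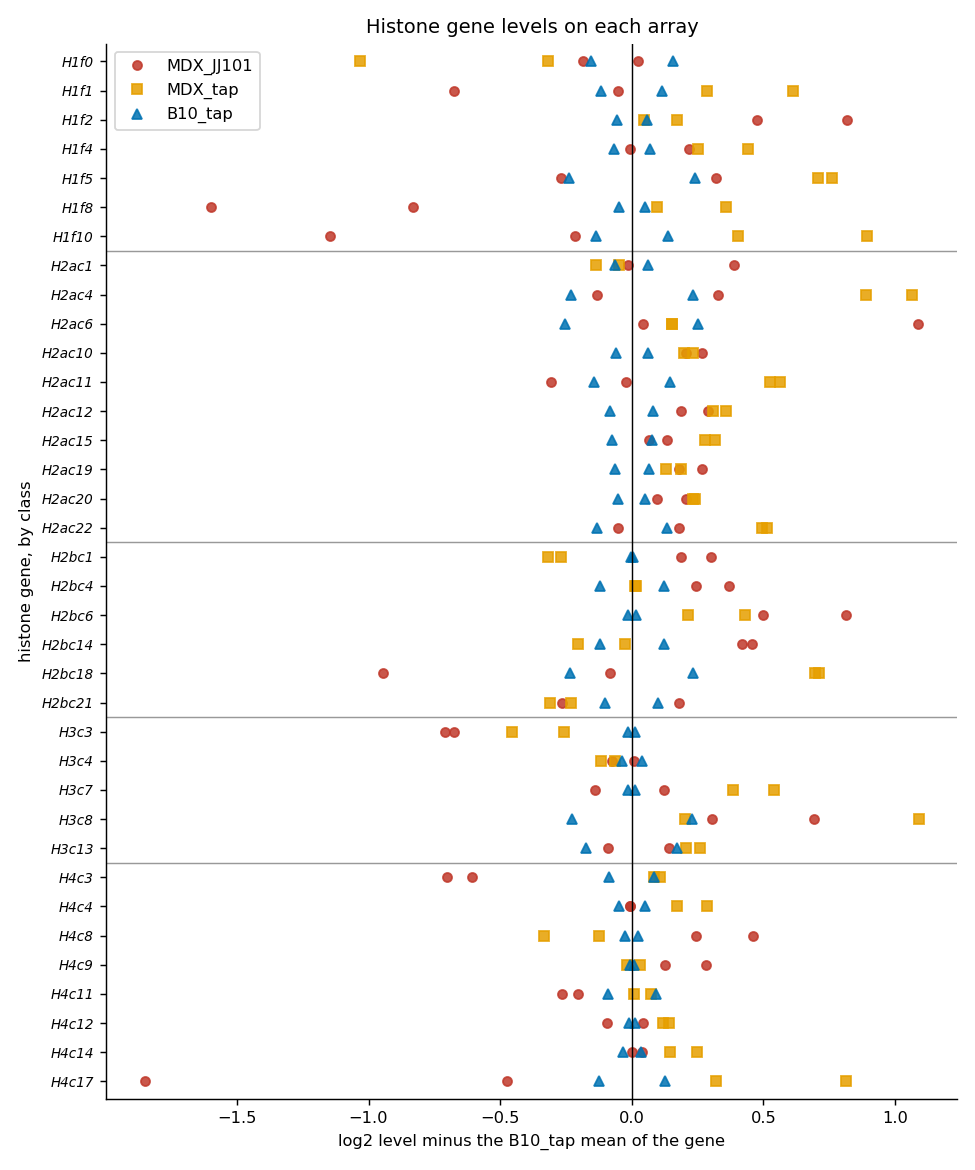
Level of each of the 36 histone genes tested on each array, as the difference from the gene's B10_tap mean (x axis, log2), with genes by class on the y axis; each point is 1 array, with colour and shape for the group. H4c17 and H2ac6 show the widest spread between the 2 MDX_JJ101 arrays, 1.37 and 1.04.

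Of 7 linker histones tested, 1 rose and 2 fell in MDX_JJ101 against MDX_tap, where 19.9% of all genes rose and 16.1% fell. H1f2, a linker histone made in most somatic cells, had levels of 4.28 and 4.62 in MDX_JJ101, 3.85 and 3.98 in MDX_tap, and 3.75 and 3.86 in B10_tap. Both MDX_JJ101 arrays lay above all 4 others. The difference from MDX_tap was 0.54 (SE 0.15, adjusted p = 0.0431), or 1.45-fold higher in MDX_JJ101. H1f8, the linker histone of oocytes, had -4.67 and -5.44 in MDX_JJ101, -3.74 and -3.48 in MDX_tap, and -3.89 and -3.79 in B10_tap. It was well above background on neither MDX_JJ101 array, both of which were the lowest. Its difference was -1.44 (SE 0.27, adjusted p = 0.0181), and no fold is given, since the MDX_tap mean did not exceed the lowest signal called well above background on the MDX_JJ101 arrays. H1f10, a replacement linker histone, had -4.32 and -5.25 in MDX_JJ101, -3.70 and -3.21 in MDX_tap, and -3.96 and -4.24 in B10_tap. It too was well above background on neither MDX_JJ101 array, and on 1 of the B10_tap arrays. Its difference was -1.33 (SE 0.35, adjusted p = 0.038), with no fold. H1f10 passed the filter on dim probes through MDX_tap alone, the group where it is high, so a difference from MDX_tap was built in and its call is given as a description. The 2 MDX_JJ101 arrays of these dim genes lay 0.77 apart for H1f8 and 0.93 apart for H1f10. The differences of H1f8 and H1f10 shrank to -0.31 and -0.13 with normexp and quantile normalization, which adds an offset to every signal, and H1f10 was then not past the threshold.

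The other linker histones did not pass the test. H1f0, a replacement linker histone that builds up in cells that no longer divide, had the highest difference of all 36 genes, 0.59 (SE 0.26, adjusted p = 0.133). Its levels were -2.23 and -2.44 in MDX_JJ101, -2.58 and -3.29 in MDX_tap, and -2.10 and -2.41 in B10_tap, and the MDX_tap arrays differed from each other by more than the difference from MDX_JJ101. H1f1 had -4.04 and -3.42 in MDX_JJ101, -3.08 and -2.75 in MDX_tap, and -3.48 and -3.25 in B10_tap. All MDX_JJ101 values of H1f1 were bounds, at least 1.32-fold below MDX_tap, with an adjusted p of 0.0535. H1f4 averaged 2.32 ± 0.16 in MDX_JJ101, 2.56 ± 0.13 in MDX_tap and 2.21 ± 0.10 in B10_tap (SD, n = 2 each, as below). H1f5 averaged -1.37 ± 0.42 in MDX_JJ101, -0.66 ± 0.038 in MDX_tap and -1.40 ± 0.34 in B10_tap. These 3 are replication-dependent somatic linker histones, and their differences between the MDX groups were -0.81, -0.24 and -0.71.

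Of 10 H2A genes, each by its brightest probe, 2 fell in MDX_JJ101 and none rose, where 16.1% of all genes fell and 19.9% rose. H2ac4 had 2.00 and 1.54 in MDX_JJ101, 2.57 and 2.74 in MDX_tap, and 1.44 and 1.91 in B10_tap. The MDX_tap arrays were the highest, and the other 2 groups overlapped. The difference between the MDX groups was -0.88 (SE 0.23, adjusted p = 0.0364), or 1.84-fold lower in MDX_JJ101. H2ac11 had 5.12 and 4.84 in MDX_JJ101, 5.67 and 5.71 in MDX_tap, and 5.0 and 5.29 in B10_tap. Its MDX_tap arrays again stood above the other 4, and its difference was -0.71 (SE 0.15, adjusted p = 0.0249), or 1.63-fold lower in MDX_JJ101. H2ac22 had 5.01 and 4.77 in MDX_JJ101, 5.34 and 5.32 in MDX_tap, and 4.69 and 4.96 in B10_tap, the same order, with a difference of -0.44 (SE 0.14, adjusted p = 0.063) that did not pass. These 3 encode H2A proteins of the replication-dependent kind.

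By the brightest probe, the other H2A genes differed by little. H2ac10 averaged 6.24 ± 0.043 in MDX_JJ101, 6.22 ± 0.025 in MDX_tap and 6.0 ± 0.086 in B10_tap. H2ac12 averaged 6.28 ± 0.071 in MDX_JJ101, 6.37 ± 0.036 in MDX_tap and 6.04 ± 0.12 in B10_tap. H2ac15 averaged 5.94 ± 0.047 in MDX_JJ101, 6.14 ± 0.027 in MDX_tap and 5.84 ± 0.11 in B10_tap. Each of these 3 lay within 0.20 between the MDX groups, with the B10_tap mean the lowest. H2ac19 averaged 6.31 ± 0.063 in MDX_JJ101, 6.25 ± 0.040 in MDX_tap and 6.09 ± 0.092 in B10_tap. H2ac20 averaged 5.99 ± 0.078 in MDX_JJ101, 6.08 ± 0.0054 in MDX_tap and 5.84 ± 0.072 in B10_tap. For these as well the B10_tap mean was the lowest of the 3 groups. A second, dimmer probe of H2ac19, well above background on all 6 arrays, disagreed. It differed by 0.61 between MDX_JJ101 and MDX_tap, with no overlap. H2ac1, the H2A of the testis, was well above background on all 6 arrays and averaged -1.72 ± 0.29 in MDX_JJ101, -2.00 ± 0.061 in MDX_tap and -1.90 ± 0.089 in B10_tap. H2ac6 averaged -3.15 ± 0.74 in MDX_JJ101, -3.56 ± 0.00054 in MDX_tap and -3.71 ± 0.36 in B10_tap, and was below that mark on 1 MDX_JJ101 array. By the brightest probes, differences between the MDX groups ran from -0.20 (H2ac15) to 0.41 (H2ac6) over these 7 genes.

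Of 6 H2B genes tested, 5 had a difference above 0 between MDX_JJ101 and MDX_tap, where 10441 of all 20869 genes did. The H2B median was 0.31. By the brightest probe, 4 of the 10 H2A genes were above 0, with a median of -0.091. A difference between the 2 classes was not tested. With spike-in scaling, where the all-gene median was -0.43, 5 of the 36 histone genes were above 0. H2bc1, the H2B of the testis and a partner of H2ac1, had 3.39 and 3.50 in MDX_JJ101, 2.93 and 2.88 in MDX_tap, and 3.20 and 3.21 in B10_tap. The 3 groups did not overlap, with MDX_JJ101 highest and MDX_tap lowest. The difference between the MDX groups was 0.54 (SE 0.10, adjusted p = 0.0173), or 1.45-fold higher in MDX_JJ101. H2bc14 had 4.20 and 4.24 in MDX_JJ101, 3.76 and 3.58 in MDX_tap, and 3.66 and 3.91 in B10_tap, with both MDX_JJ101 arrays above all others. Its difference was 0.55 (SE 0.13, adjusted p = 0.0295), or 1.47-fold higher. H2bc18, on chromosome 3, was the exception, with -1.92 and -2.78 in MDX_JJ101, -1.13 and -1.14 in MDX_tap, and -2.07 and -1.61 in B10_tap. Both MDX_tap arrays were the highest, the MDX_JJ101 arrays lay 0.86 apart, and the difference was -1.22 (SE 0.32, adjusted p = 0.037), or 2.33-fold lower in MDX_JJ101. It shrank to -0.50 with normexp and quantile normalization and stayed past the threshold there.

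The other H2B genes did not pass between the MDX groups. H2bc4 had 5.73 and 5.60 in MDX_JJ101, 5.37 and 5.37 in MDX_tap, and 5.24 and 5.48 in B10_tap, with both MDX_JJ101 arrays the highest and a difference of 0.29 (SE 0.12, adjusted p = 0.119). H2bc6 had -0.54 and -0.22 in MDX_JJ101, -0.82 and -0.60 in MDX_tap, and -1.05 and -1.02 in B10_tap. The order there was MDX_JJ101, MDX_tap, B10_tap with no overlap, and the difference between the MDX groups was 0.33 (SE 0.15, adjusted p = 0.133). H2bc21, a variant studied in olfactory neurons of mice, averaged -0.64 ± 0.31 in MDX_JJ101, -0.86 ± 0.056 in MDX_tap and -0.60 ± 0.14 in B10_tap.

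Of 5 H3 genes tested, 1 passed between the MDX groups, a dim gene that was lower in MDX_JJ101, as 16.1% of all genes were. H3c7 had -3.66 and -3.40 in MDX_JJ101, -2.98 and -3.13 in MDX_tap, and -3.53 and -3.50 in B10_tap. No MDX_JJ101 array was well above background, and the difference of -0.47 (SE 0.13, adjusted p = 0.043) meant a level at least 1.20-fold lower in MDX_JJ101. It shrank to -0.033 with normexp and quantile normalization and was then not past the threshold. H3c3 had 0.61 and 0.57 in MDX_JJ101, 1.02 and 0.83 in MDX_tap, and 1.30 and 1.27 in B10_tap, a stepwise order of the 3 groups with B10_tap highest. Its difference between the MDX groups was -0.34 (SE 0.11, adjusted p = 0.0648). H3c4 averaged 4.21 ± 0.058 in MDX_JJ101, 4.15 ± 0.036 in MDX_tap and 4.24 ± 0.055 in B10_tap, the smallest spread of group means in this class. H3c8 averaged -3.00 ± 0.27 in MDX_JJ101, -2.85 ± 0.63 in MDX_tap and -3.50 ± 0.32 in B10_tap. H3c13, on chromosome 3, averaged -0.14 ± 0.16 in MDX_JJ101, 0.067 ± 0.038 in MDX_tap and -0.17 ± 0.25 in B10_tap. All 5 encode replication-dependent H3 proteins.

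H4 genes encode the same protein, and their messages went both ways. H4c3 had -0.63 and -0.53 in MDX_JJ101, 0.18 and 0.16 in MDX_tap, and -0.013 and 0.16 in B10_tap. Both MDX_JJ101 arrays lay below all 4 others, and the difference was -0.75 (SE 0.11, adjusted p = 0.0132), or 1.68-fold lower in MDX_JJ101. H4c8 had -1.15 and -0.93 in MDX_JJ101, -1.73 and -1.52 in MDX_tap, and -1.37 and -1.42 in B10_tap, with both MDX_JJ101 arrays the highest. Its difference was 0.58 (SE 0.13, adjusted p = 0.0263), or 1.5-fold higher in MDX_JJ101. H4c17 had -3.30 and -4.67 in MDX_JJ101, -2.01 and -2.50 in MDX_tap, and -2.95 and -2.70 in B10_tap. No MDX_JJ101 array was well above background, the 2 lay 1.37 apart, and the difference of -1.73 (SE 0.47, adjusted p = 0.0407) meant a level at least 2.06-fold lower in MDX_JJ101. It shrank to -0.40 with normexp and quantile normalization.

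The other 5 H4 genes differed by 0.28 or less between the MDX groups. H4c4 averaged 4.03 ± 0.0012 in MDX_JJ101, 4.27 ± 0.081 in MDX_tap and 4.04 ± 0.070 in B10_tap. H4c9 averaged 2.70 ± 0.11 in MDX_JJ101, 2.5 ± 0.034 in MDX_tap and 2.49 ± 0.010 in B10_tap. H4c11 averaged 0.42 ± 0.045 in MDX_JJ101, 0.70 ± 0.047 in MDX_tap and 0.66 ± 0.13 in B10_tap. The first and the third were lower in MDX_JJ101 than in MDX_tap, and H4c9 was higher, none past the threshold. H4c12 averaged 5.48 ± 0.10 in MDX_JJ101, 5.64 ± 0.016 in MDX_tap and 5.51 ± 0.016 in B10_tap. H4c14 averaged 5.28 ± 0.027 in MDX_JJ101, 5.45 ± 0.072 in MDX_tap and 5.26 ± 0.048 in B10_tap. Their differences between the MDX groups were -0.16 and -0.17, not past the threshold.

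**Figure D3:**
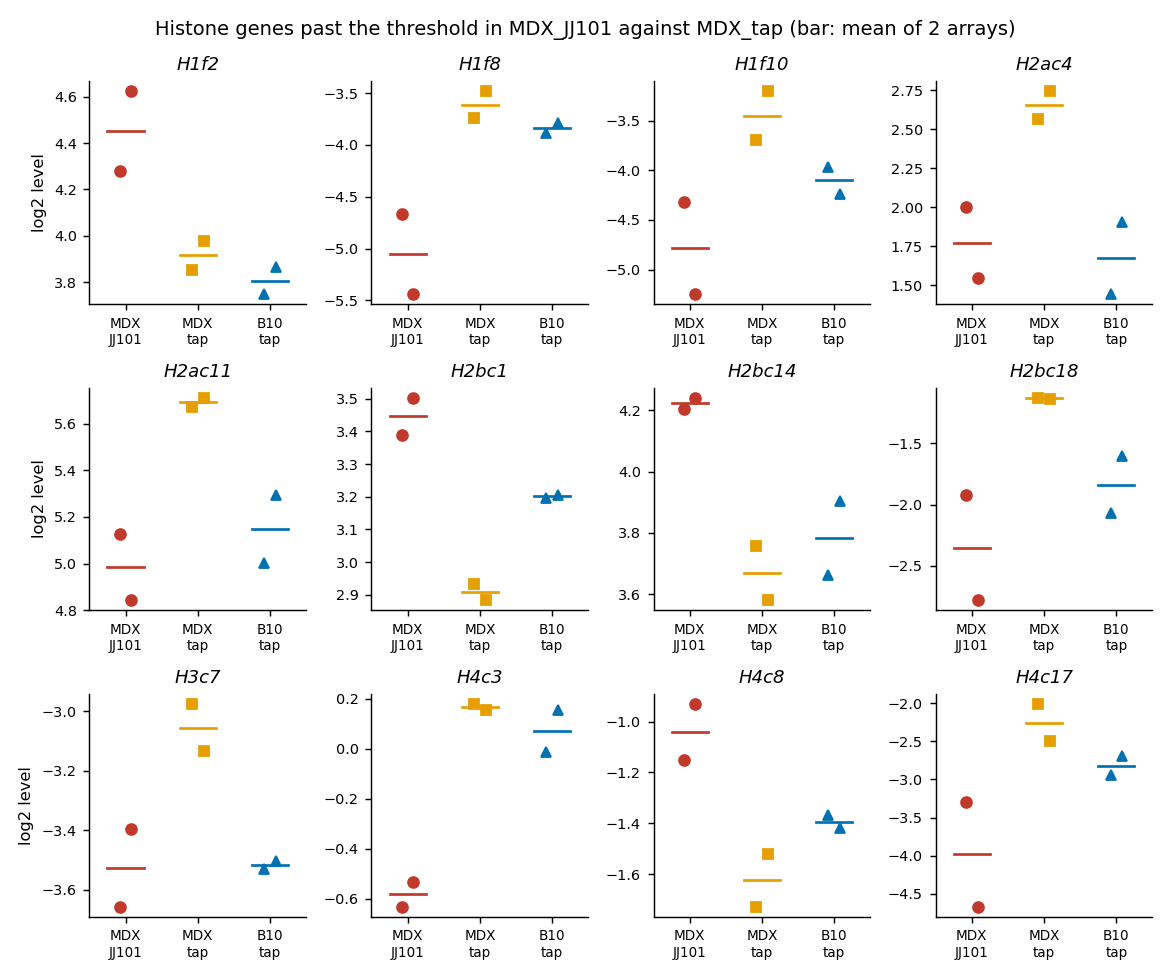
Levels of the 12 histone genes past the threshold between MDX_JJ101 and MDX_tap, 1 panel a gene, with the groups on the x axis and the log2 level on the y axis; points are arrays and bars group means. H1f2, H2bc1, H2bc14 and H4c8 are higher in MDX_JJ101 than in MDX_tap and the other 8 are lower.

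MDX_tap against B10_tap sets MDX muscle against C57BL/10 muscle, both on tap water. The differences (MDX_tap minus B10_tap, log2) leaned upward, but none of the 36 histone genes passed limma's test, in which 0.024% of all genes (5 of 20869) did. At an unadjusted p under 0.05, 11 of 36 passed, or 30.6%, against 21.0% of all genes. Of these, 8 were higher in MDX_tap (22.2%, against 8.64% of all genes) and 3 lower (8.33%, against 12.4% of all genes). Over the 36 genes the median difference was 0.22, against -0.060 over all genes. In 28 of 36 genes the difference was above 0 (77.8%, against 41.6% of all genes). Both MDX_tap arrays lay above both B10_tap arrays in 22 (61.1%, against 24.4% of all genes) and below them in 6 (16.7%, against 37.0%). The excess at an unadjusted p did not hold without B10_tap replicate 1 or without either MDX_tap array, fits that leave 1 array in a group. Nor did it hold with spike-in scaling. There 1 of 36 had a p under 0.05 in limma's test, against 1537 of all 20869 genes. The median of the 36 genes was 0.20 in that run, against -0.085 over all genes. When 1 array was left out, it ran from 0.16 to 0.28.

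By class, the median difference was 0.35 for H1, 0.27 for H2A, 0.23 for H3, 0.11 for H4 and -0.050 for H2B. In 9 of 10 H2A genes, 7 of 8 H4 genes and 6 of 7 H1 genes the difference was above 0, and in 3 of 6 H2B genes. The 5 genes with the smallest p were H2ac4, H2ac22, H3c7, H2ac11 and H3c3. Their per-array levels are given above. Picked by p, all 5 had MDX_tap arrays that did not overlap the B10_tap arrays. Among all genes, MDX_tap lay wholly above B10_tap in 24.4% and wholly below in 37.0%. H2ac4 had the largest difference, 0.98 (SE 0.23, adjusted p = 0.131). H2ac22 differed by 0.50 (SE 0.14, adjusted p = 0.161). H3c7 differed by 0.46 (SE 0.13, adjusted p = 0.162). These 3 were higher in MDX_tap on both arrays. H2ac11 differed by 0.54 (SE 0.15, adjusted p = 0.163). H3c3 was the one with the opposite sign, -0.36 (SE 0.11, adjusted p = 0.176). With normexp and quantile normalization, 1 histone gene passed, H2ac4, where 302 of all 20869 genes passed as higher and 105 as lower.

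**Figure D4:**
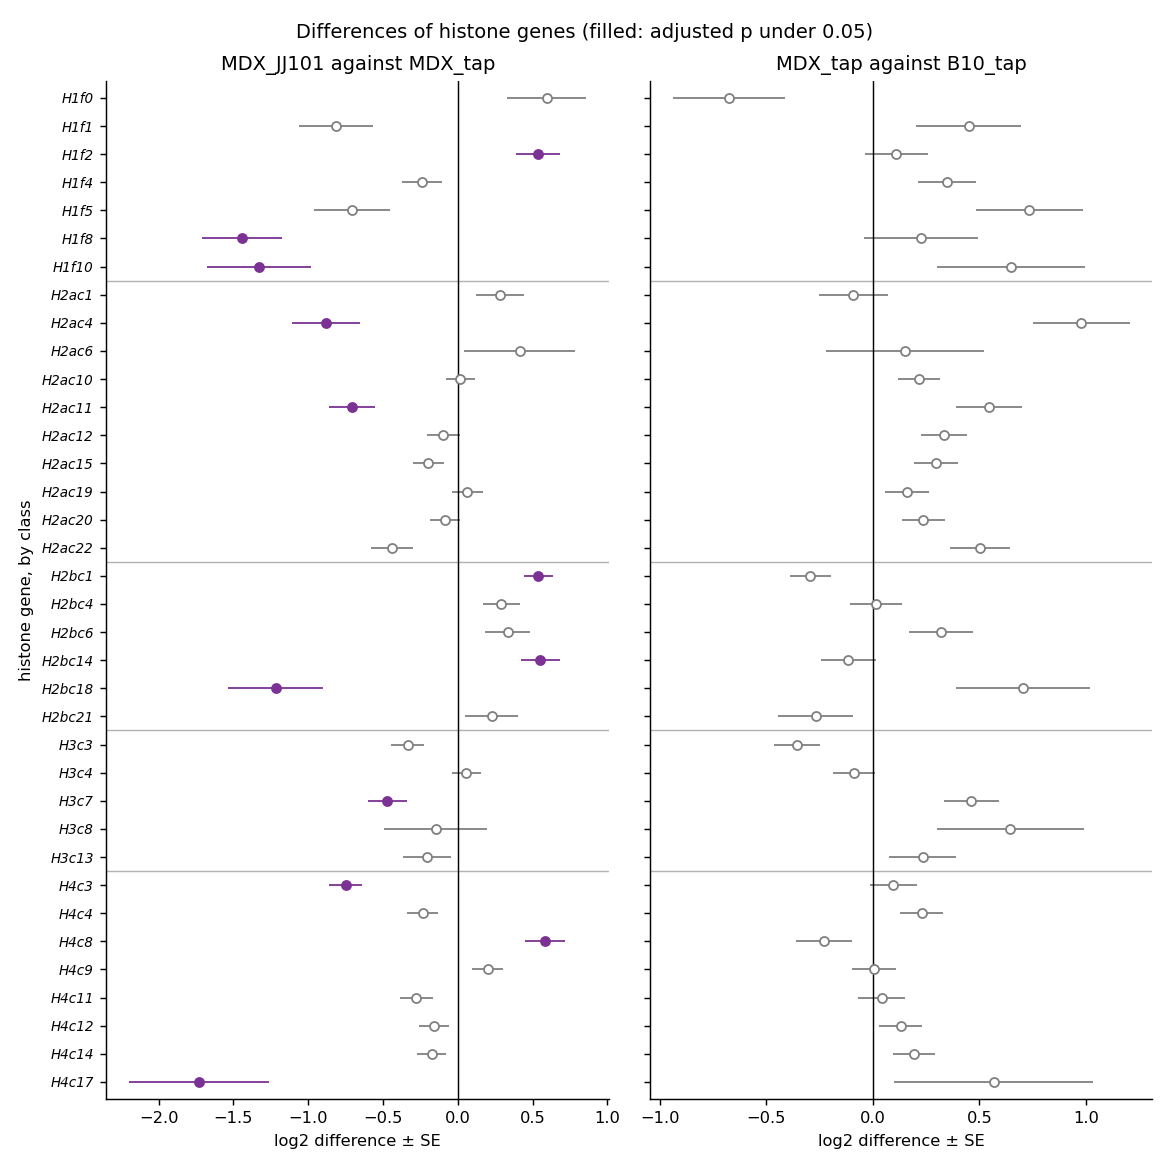
Log2 difference of each histone gene with its SE (x axes), for MDX_JJ101 against MDX_tap on the left and MDX_tap against B10_tap on the right, with genes by class on the y axis; filled points passed the threshold. On the left 12 genes passed, 4 above and 8 below 0, and on the right none passed, with 28 of 36 above 0.

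MDX_JJ101 against B10_tap changes strain and water together. Of the 36 histone genes, 5 passed (13.9%), against 33.6% of all genes. H1f2 and H2bc6 were higher in MDX_JJ101 (5.56%, against 16.2% of all genes), and H1f8, H3c3 and H4c3 were lower (8.33%, against 17.4% of all genes). H1f2 differed by 0.65 (SE 0.15, adjusted p = 0.0294), or 1.56-fold. H2bc6 differed by 0.65 (SE 0.15, adjusted p = 0.0288), or 1.57-fold. In both, the MDX_JJ101 arrays were the highest of the 6. H3c3 differed by -0.69 (SE 0.11, adjusted p = 0.0146), or 1.62-fold lower. H4c3 differed by -0.65 (SE 0.11, adjusted p = 0.0158), or 1.57-fold lower. H1f8 differed by -1.21 (SE 0.27, adjusted p = 0.027), again with no fold. Over the 36 genes the median was 0.046, against -0.0064 over all genes, and 21 differences were above 0 (58.3%, against 49.5% of all genes). Both MDX_JJ101 arrays lay above both B10_tap arrays for 12 genes (33.3%, against 37.9% of all genes) and below them for 6 (16.7%, against 37.3%). At an unadjusted p under 0.05, 7 passed (19.4%, against 47.9% of all genes), 4 higher (11.1%, against 23.6%) and 3 lower (8.33%, against 24.3%). Without either B10_tap array the calls were lost, as were most calls over all genes. Such a fit leaves 1 array in B10_tap. The median over the 36 genes was -0.0046 without replicate 1 and 0.19 without replicate 2. With no filter on dim probes 9 of 47 passed, 6 higher and 3 lower, against 10303 higher and 3789 lower of all 36983 genes. Without MDX_JJ101 replicate 1 more histone genes passed, and the median was -0.0022. With spike-in scaling the split of 2 higher and 3 lower became 0 and 5, against 105 and 4353 over all genes. The median became -0.41, against -0.47 over all genes, with H1f2 and H2bc6 at 0.19 and 0.20 and not past the threshold.

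The 3 comparisons share arrays, so the values of single genes are set side by side without a test of likeness. H2ac4 gave -0.88 for MDX_JJ101 minus MDX_tap, 0.98 for MDX_tap minus B10_tap and 0.10 for MDX_JJ101 minus B10_tap. H2ac11 gave -0.71 for MDX_JJ101 minus MDX_tap, 0.54 for MDX_tap minus B10_tap and -0.16 for MDX_JJ101 minus B10_tap. In both, MDX_JJ101 lay closer to B10_tap than MDX_tap did. H3c3 had differences of one sign, -0.36 for MDX_tap minus B10_tap and -0.34 for MDX_JJ101 minus MDX_tap. H2bc6 likewise had 0.32 and 0.33. H4c3 differed by 0.10 for MDX_tap minus B10_tap and -0.75 for MDX_JJ101 minus MDX_tap.

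Genes of DNA replication give the values of S phase beside the histones. Of 23 S phase genes, 21 were tested. In MDX_JJ101 against MDX_tap 1 was higher and 5 were lower, with a median of -0.27. Of all genes, 36.1% passed in this comparison, 19.9% higher and 16.1% lower. In MDX_tap against B10_tap 0.024% of all genes passed, and 21.0% had an unadjusted p under 0.05 in limma's test. The counts of this list and of those below stand beside these shares, and a count near them is no result about a list. Mcm4, a subunit of the replicative helicase, differed by -0.55 (SE 0.11, adjusted p = 0.0208). Prim1, the primase, differed by -0.65 (SE 0.17, adjusted p = 0.036). Pola1, the catalytic subunit of the polymerase that starts new strands, differed by -0.73 (SE 0.19, adjusted p = 0.0389). Rpa2, which coats single-stranded DNA, was the higher one, at 0.63 (SE 0.11, adjusted p = 0.0167). In MDX_tap against B10_tap none of the 21 passed limma's test, 7 had an unadjusted p under 0.05, 18 differences were above 0 and the median was 0.28. The summed linear level of the list, in units of the 75th percentile, was 36.5 to 38.7 in MDX_JJ101, 44.1 to 47.3 in MDX_tap and 35.3 to 38.1 in B10_tap. MDX_tap was the highest group and the other two overlapped.

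Of 16 genes of G2 and M phase, 13 were tested, and 3 fell in MDX_JJ101 against MDX_tap with none higher (median -0.61). Of all genes, 16.1% passed there as lower and 19.9% as higher. Cenpe, a kinetochore motor, differed by -1.02 (SE 0.17, adjusted p = 0.0157). Mki67, a marker of cycling cells, differed by -0.82 (SE 0.17, adjusted p = 0.0224). Cdk1, the kinase that drives mitosis, differed by -1.11 (SE 0.32, adjusted p = 0.0461); 4 arrays showed it well above background. In MDX_tap against B10_tap none passed, 5 had an unadjusted p under 0.05, and all 13 differences were above 0 (median 0.61). The summed level was 5.81 to 6.58 in MDX_JJ101, 8.44 to 8.90 in MDX_tap and 5.09 to 6.98 in B10_tap. The part of cycling cells in the histone differences was not tested.

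Macrophages enter damaged MDX muscle. Of 11 macrophage markers tested, 7 fell in MDX_JJ101 against MDX_tap and none rose (median -1.21), and their summed level was 69.2 to 91.5 in MDX_JJ101, 124 to 181 in MDX_tap and 76.9 to 78.5 in B10_tap. In MDX_tap against B10_tap none passed, 8 had an unadjusted p under 0.05, and all 11 were above 0 (median 0.86). Of 6 T and B cell markers tested, 4 fell in MDX_JJ101 against MDX_tap (median -1.05). Their summed level was 4.87 to 5.32 in MDX_JJ101, 6.52 to 7.09 in MDX_tap and 7.27 to 7.42 in B10_tap. Of 4 red cell markers, 1 fell (median -0.47). Among all genes, 19.9% passed as higher and 16.1% as lower in this comparison. Heart markers, of which 5 of 11 rose and none fell in MDX_JJ101 (median 0.56), summed to 4618 to 4829 in MDX_JJ101, 3554 to 3701 in MDX_tap and 3611 to 3625 in B10_tap. Of 12 limb muscle markers tested, 1 rose and 6 fell (median -2.04). Their summed level ran the other way, at 292 to 304 in MDX_JJ101, 170 to 183 in MDX_tap and 171 to 173 in B10_tap. The one that rose was Ckm, the muscle creatine kinase, at 1.37 (SE 0.15, adjusted p = 0.0128). The part of these cell types in the histone differences was not tested.

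**Figure D5:**
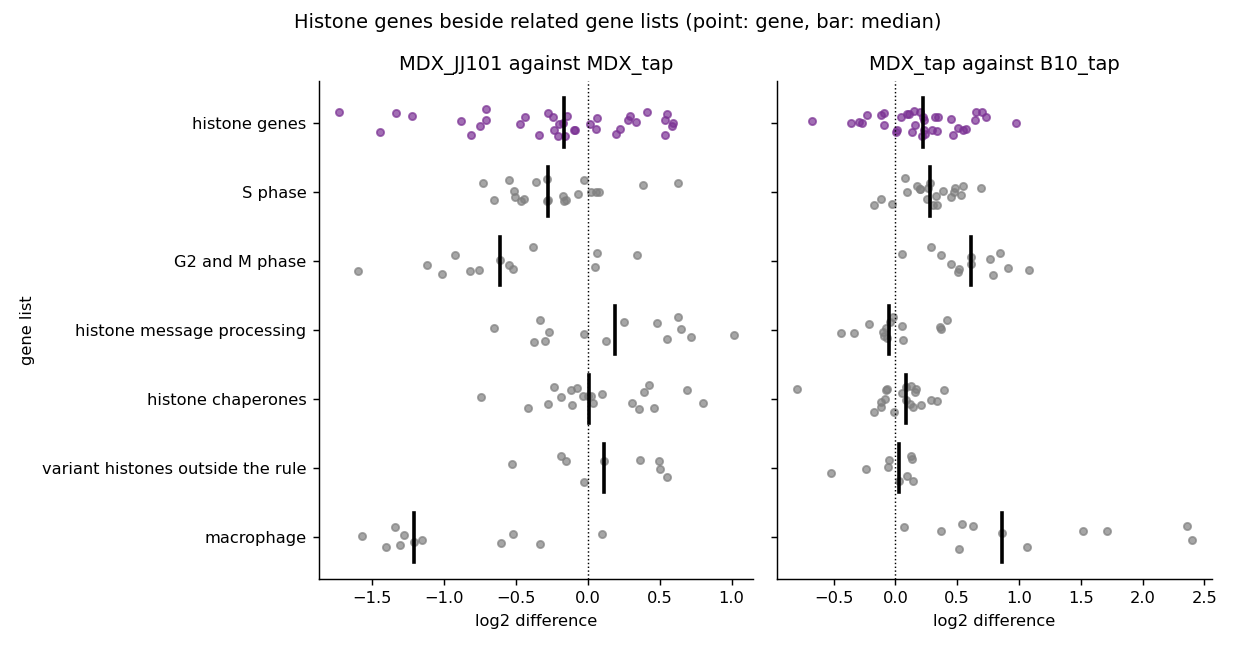
Log2 differences of the histone genes and of 6 related lists (y axis), for MDX_JJ101 against MDX_tap on the left and MDX_tap against B10_tap on the right; points are genes and bars medians. The medians of the histone, S phase, G2 and M phase and macrophage lists were below 0 on the left and above 0 on the right. Those of histone message processing (0.19 left, -0.056 right), histone chaperones (0.011, 0.087) and variant histones (0.11, 0.032) were not. MDX_tap enters the 2 panels with opposite signs.

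Genes that make and handle the histone message were tested for 14 of 16. Npat, the coactivator of histone transcription in S phase, and Zfp473 were well above background on no array. In MDX_JJ101 against MDX_tap 5 rose and 1 fell (median 0.19), where 19.9% of all genes rose and 16.1% fell. Lsm10, part of the particle that recognises the histone message for cleavage, differed by 0.65 (SE 0.095, adjusted p = 0.0133). Cpsf3, the nuclease that cuts it, differed by 0.62 (SE 0.12, adjusted p = 0.0189). Upf1, a helicase of histone message decay, differed by 0.55 (SE 0.095, adjusted p = 0.0158). Casp8ap2, a scaffold of the cleavage complex, was the one that fell, with -0.65 (SE 0.10, adjusted p = 0.0144). Slbp, which binds the stem-loop, differed by -0.33 (SE 0.21, adjusted p = 0.27). Between MDX_tap and B10_tap none of the 14 passed, 2 had an unadjusted p under 0.05, and the median was -0.056.

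Of 20 histone chaperones, all tested, 5 rose and 1 fell in MDX_JJ101 against MDX_tap (median 0.011), where 19.9% of all genes rose and 16.1% fell. Nap1l4, a chaperone of H2A and H2B, differed by 0.80 (SE 0.094, adjusted p = 0.0128). Hira, which deposits H3 outside S phase, differed by 0.69 (SE 0.14, adjusted p = 0.0203). Cabin1, of the same complex, differed by 0.43 (SE 0.095, adjusted p = 0.0254). Atrx, a chromatin remodeller that works with Daxx, differed by -0.74 (SE 0.19, adjusted p = 0.0352). No chaperone passed in MDX_tap against B10_tap, where 2 had an unadjusted p under 0.05 and the median was 0.087.

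Variant histones whose symbols fall outside the rule were tested for 9 of 10. In MDX_JJ101 against MDX_tap 3 rose and 1 fell (median 0.11), where 19.9% of all genes rose and 16.1% fell. The 2 genes of the variant H2A.Z went opposite ways: H2az2 had 5.45 and 5.42 in MDX_JJ101, against 4.87 and 5.0 in MDX_tap, and H2az1 had 5.12 and 4.99 in MDX_JJ101, against 5.64 and 5.53 in MDX_tap. Neither gene's groups overlapped. H2az2 differed by 0.50 (SE 0.10, adjusted p = 0.0203). H2az1 differed by -0.53 (SE 0.11, adjusted p = 0.0219). Cenpa, the H3 of centromeres, differed by 0.50 (SE 0.13, adjusted p = 0.0405), with 2.69 and 2.45 in MDX_JJ101 against 1.96 and 2.18 in MDX_tap. Macroh2a1 differed by 0.37 (SE 0.091, adjusted p = 0.0338). In MDX_tap against B10_tap none passed, 2 had an unadjusted p under 0.05, and the median was 0.032.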

How the data were processed

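Total RNA of 6 samples was measured on Agilent 1-colour arrays. The deposited intensity values came from Agilent Feature Extraction 11.5.1.1, per the submitters' processing notes. The deposited files also hold 0 or 1 flags, a score of the scanner software for each spot, and name mm9 as the design's build. The authors' deposited table holds log2 values; each column ranked like that array's median spot signal (Spearman correlation of 1), and it was used as an alternative.

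Log2 processed signals were centred on each array's 75th percentile over 59305 non-control spots. Spots marked as outliers were dropped, and a probe's spots averaged. Symbols came from RefSeq accessions in a gene table of GRCm38.p6, for 27656 of 55681 probes. A probe was kept if 1 group or more showed it well above background on each of its arrays (27258 probes), and the brightest probe stood for a gene: 20869 genes and transcripts, 13952 with a symbol, 8 values missing. All 3 groups entered 1 fit by limma 3.58.1 (R 4.3.3), which was tested on simulated data, with Benjamini-Hochberg adjustment, two-sided, at 0.05. A fold against a group not well above background on any array is a bound, set against the lowest signals called well above background there. Signal over background and the number of arrays limit the precision.

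Alternatives were normexp (offset 50, on median spot and background signals, in place of the mean signal that was planned) with quantile normalization, median centring, spike-in scaling, no filter, the mean of a gene's probes, a slide column block, a replicate block, 2-group fits and leaving out each array. The text names every histone gene tested, and up to 4 members of each other list by smallest p, besides Slbp, Npat and Zfp473, picked after their values were seen. Members and lists were chosen with earlier results of these data known.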

Additional observations from a re-analysis of the deposited data

How the results depend on the processing

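Called differences kept their sign in each alternative run. The median over the 36 histone genes moved by more than the spread between arrays only with spike-in scaling. In that run it was -0.60 for MDX_JJ101 against MDX_tap (31 of 36 below 0), and the median of all genes was -0.43. For MDX_JJ101 against B10_tap it was -0.41 (32 of 36 below 0), and the median of all genes was -0.47. For MDX_JJ101 against MDX_tap the main count of 12 became 0 with the slide column as a block and 2 with the 2 groups alone, and ranged from 0 to 13 when 1 array was left out. It was 18 with normexp and quantile normalization, of which 9 were among the 12. For MDX_tap against B10_tap the count of 0 became 1 with normexp and quantile normalization. For MDX_JJ101 against B10_tap the count of 5 became 9 of 47 with no filter, where 10303 of all 36983 genes passed as higher and 3789 as lower. It fell or rose when 1 array was left out. The blocks, the 2-group fits and the fits without 1 array leave fewer degrees of freedom. The cause of the other shifts was not tested. Replicate numbers did not pair the samples: deviations of same-numbered arrays correlated at 0.16, -0.031 and -0.064 for MDX_JJ101 with MDX_tap, MDX_tap with B10_tap and MDX_JJ101 with B10_tap. With a replicate block, 8 genes passed for MDX_JJ101 against MDX_tap (7 of them among the 12), 5 for MDX_JJ101 against B10_tap and 0 for MDX_tap against B10_tap. Histone genes found on all 6 arrays numbered 30, against 37 by the scanner's test of a positive and significant signal and 29 when all probes of a gene had to pass. Dim genes are limited by signal over background.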

Other observations

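A second probe was present for 5 histone genes. For H2ac19 the probes disagreed: the probe used differed by 0.064 between MDX_JJ101 and MDX_tap, and the dimmer one by 0.61, with levels of 5.25 and 5.24 in MDX_JJ101, against 4.65 and 4.62 in MDX_tap. In MDX_tap against B10_tap the probe used differed by 0.16 and the dimmer one by -0.13. The 2 probes of H2ac15 differed by -0.20 and -0.37 between MDX_JJ101 and MDX_tap, those of H4c12 by -0.16 and -0.18, and those of H4c9 by 0.20 and 0.060. The second probe of H4c14 was well above background on 1 array.

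Of the H2A and H2B genes on the array, 3 pairs on chromosome 13 are described here. By their RefSeq starts, the genes of each pair begin close together and are read in opposite directions. These 3 are not a count of all such pairs. H2bc1 and H2ac1, the testis pair, start 80 bases apart; both were well above background on all 6 arrays, with differences of 0.54 and 0.28 between MDX_JJ101 and MDX_tap. H2ac22 and H2bc22 start 39 bases apart; H2ac22 was well above background on all 6 arrays and H2bc22 on 0. H2ac8 was well above background on 0 arrays and its neighbour H2bc8 on 1.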
